A study of Mus musculus with 100 samples.

Results

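The genes described here are 40 interferon-stimulated genes, chosen by name from earlier results of these data, out of 23109 gene entries in the RNA tables. All 40 were found in the tables of the 37 RNA libraries, and 21 of them had at least 1 read in every library. The cultures derive from mouse embryonic stem cells (ESCs) that all lack MLL3 (Mll3-/-), the histone H3K4 methyltransferase encoded by Kmt2c, so the controls carry that deletion too. The control cultures, called flox, are Mll4flox/flox, and the others, called KI, are Mll4KI/KI at the gene for the sister enzyme MLL4 (Kmt2d). The labels do not spell out what KI changes in the protein.

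The KI cultures come from 2 clones, numbered 27 and 48, so a KI group of 2 is 1 library from each clone. ESCs grown in 2i and LIF (day 0) and hanging-drop embryoid bodies (EBs, days 4 and 10) have 1 flox and 2 KI libraries each. Neural cultures were sampled on days 8 and 16, from embryoid bodies given retinoic acid and then plated in N-2 and B-27 media, with 2 flox and 2 KI libraries a day. Trophectoderm cultures were made with a doxycycline-inducible lentivirus that expresses T7-tagged CDX2 and spent 6 days in trophoblast stem cell medium that holds MEF-conditioned medium, FGF4 and heparin, with 2 libraries a genotype. Extraembryonic endoderm cultures spent 5 days in retinoic acid and activin A, again with 2 libraries a genotype. The E8.5 and E9.5 libraries are of whole embryos that carry Sox2-Cre, which is active in the epiblast: the controls are Mll3flox/KI;Mll4flox/+;Sox2-Cre and the KI embryos Mll3flox/KI;Mll4flox/KI;Sox2-Cre, with 3 libraries a genotype and stage. KI libraries of a group differ by clone and embryo libraries by embryo number, but nothing in the labels says that the flox libraries of a group came from separate cultures, so their spread, which enters the p-values, may be technical.

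Interferons are secreted cytokines that bind receptors on the cell surface, activate JAK kinases and switch on transcription factors. Type I and III interferons act through a complex that includes STAT2 and IRF9 and binds the interferon-stimulated response element (ISRE), and interferon gamma acts through the gamma-activated site (GAS). The induced genes encode sensors of viral RNA and DNA, enzymes that degrade or block viral RNA, proteins that hold virions or stop their entry, and the ubiquitin-like protein ISG15 with its ligases. Pluripotent cells are known for a weak interferon response that strengthens as they differentiate.

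Promoter sequences are shown for 5 members whose values the results below turn on. Reference promoters came from RefSeq on GRCm38.p6 and matched 30 of the 40 members by symbol, each with 250 bases before and 50 after an annotated start. Each line gives the 160 bases before the start, 5′ to 3′ in the direction of the gene. Capitals mark matches to the ISRE core GAAANNGAAA, searched on both strands with overlapping matches kept, in Isg15, Ifit1, Rsad2 and Bst2, and the match to the GAS motif TTCNNNGAA in Irf1.
Isg15, chr4:156200819-156200978, minus strand: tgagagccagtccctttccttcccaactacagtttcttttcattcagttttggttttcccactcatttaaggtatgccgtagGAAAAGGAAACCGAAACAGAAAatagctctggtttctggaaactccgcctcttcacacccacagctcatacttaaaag
Ifit1, chr19:34640729-34640888, plus strand: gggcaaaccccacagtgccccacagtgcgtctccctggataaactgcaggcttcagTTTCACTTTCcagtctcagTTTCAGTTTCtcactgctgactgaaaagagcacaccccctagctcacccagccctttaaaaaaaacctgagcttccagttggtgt
Rsad2, chr12:26456453-26456612, minus strand: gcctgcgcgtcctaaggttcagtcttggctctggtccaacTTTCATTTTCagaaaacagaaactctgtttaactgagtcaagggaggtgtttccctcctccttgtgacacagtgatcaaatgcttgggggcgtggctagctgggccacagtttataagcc
Bst2, chr8:71537473-71537632, minus strand: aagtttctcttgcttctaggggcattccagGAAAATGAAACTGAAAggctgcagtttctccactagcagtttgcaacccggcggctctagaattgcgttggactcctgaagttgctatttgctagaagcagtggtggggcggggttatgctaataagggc
Irf1, chr11:53769854-53770013, plus strand: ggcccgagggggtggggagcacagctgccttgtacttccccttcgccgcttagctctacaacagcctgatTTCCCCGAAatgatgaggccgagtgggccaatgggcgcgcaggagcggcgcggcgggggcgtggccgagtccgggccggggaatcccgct
The Isg15 line holds 3 overlapping ISRE cores, the Bst2 line holds 2 overlapping cores, and the Ifit1 line holds 2 separate cores on the opposite strand. Of the 30 members with a promoter, 11 (36.7%) had an ISRE core match in the whole window of 300 bases: Bst2, Eif2ak2, Ifih1, Ifit1, Ifit3, Ifitm3, Isg15, Oas1a, Oas3, Rsad2 and Stat2. The same core was found in 1079 of the 27025 genes with a promoter in that table (3.99%). In Eif2ak2, Ifih1 and Ifitm3 the match lay past the annotated start. The GAS motif was found in 9 of the 30 members (30.0%) and in 2582 of the 27025 genes (9.55%), with 4 members holding both motifs and 14 neither. These shares describe letters in a window and not binding, and the members were picked because interferon is known to induce them.

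Levels are given as CPM, the count of reads of a gene scaled by the total of gene reads in its library, and comparisons between genes use the deposited RPKM, which is per length. A library held 18.9 to 59.9 M reads assigned to genes, so 3 reads, used as the floor, are worth 0.0501 to 0.159 CPM. The transcripts for Kmt2c stood at 27.6 to 99.4 CPM and those for Kmt2d at 149 to 334 CPM over all libraries, so RNA from both genes was read in every culture and these totals do not test the genotype labels. The 10 interferon ligand genes looked for were at most 0.363 CPM each (Ifnk, in the clone 48 trophectoderm library), and none of the 10 passed the filter on low counts in any comparison. Of those ligands, Ifna1, Ifna2 and Ifna5 had 0 reads in all 37 libraries, and Ifnb1 had 5 reads over 3 libraries.

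Summed over the 40 members, the level was lowest in the embryos, at 163 to 179 CPM in all 12 libraries, and highest in the trophectoderm KI libraries. For 32 of the 40 members the highest of the 18 group means was in trophectoderm KI. A further 4 members were highest in the KI embryoid bodies of day 10. Per length, the most abundant member was Ifitm3, a membrane protein that blocks virus entry, or Bst2 (tetherin), which holds budding virions at the cell surface, in all groups except 4. Those 4 were neural KI day 16, E8.5 KI and both E9.5 groups, where Adar, the RNA-editing enzyme that keeps the cell's own double-stranded RNA from the sensors, led with 31.7 ± 4.22 RPKM (SD, n = 2) in the neural group. In bulk RNA, fewer cells that express a gene and less RNA per cell cannot be told apart.

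**Figure D1:**
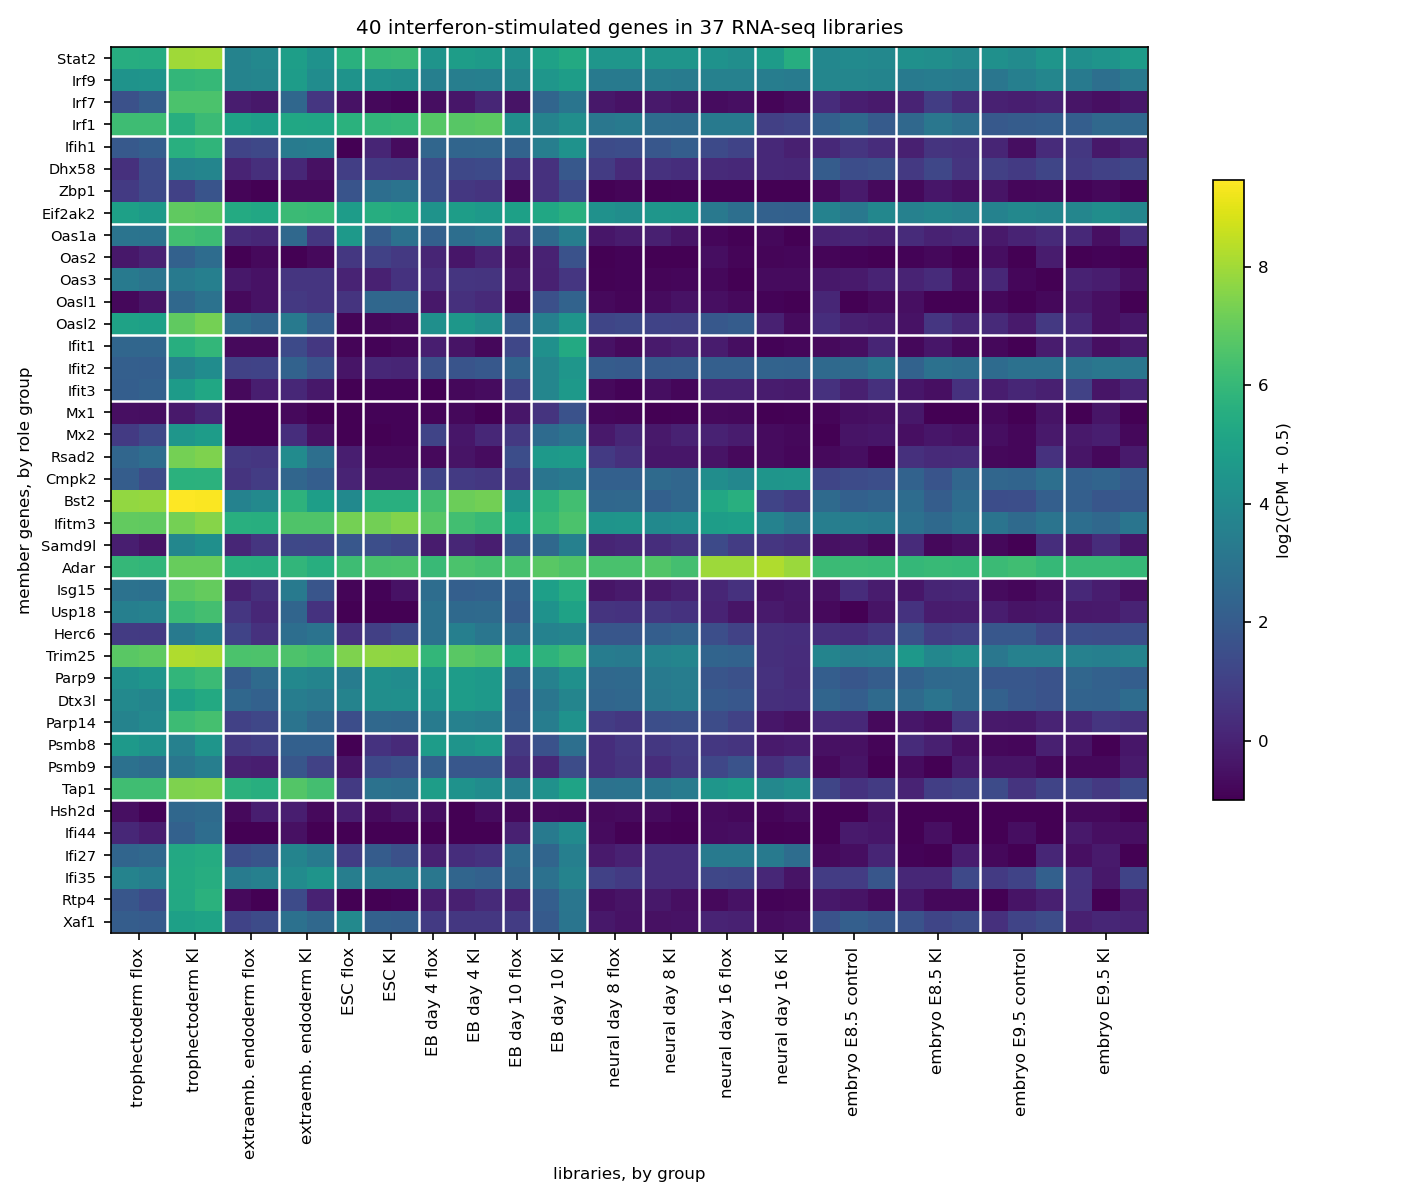
Levels of the 40 members (rows, by role group) in the 37 libraries (columns, by culture and genotype), as log2(CPM + 0.5) in colour. The trophectoderm KI columns are the brightest for most rows, the day 10 embryoid body KI columns are brighter than their flox column, and the 12 embryo columns differ little from each other.

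In the trophectoderm cultures most members were higher in KI than in flox. This is the comparison in which earlier results singled out interferon-stimulated genes, so its values are a description and no test was made. Of the 39 members with enough reads, 33 were at least 2-fold higher in KI with no overlap between the libraries and 0 were lower. Over all 15532 genes, 8.9% were higher and 10.9% lower by the same rule, and nothing is read from that contrast because the members were selected on it. The median fitted log2 fold change of the members was 2.75, against 0.01 for all genes. The summed level was 956 and 962 CPM in the flox libraries and 3174 and 3392 CPM in the KI libraries.

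Among the transcription factors of the pathway, Irf7, which amplifies the type I interferon response, stood at 2.51 and 3.69 CPM in flox and at 91.0 and 89.0 CPM in KI. Stat2 stood at 44.8 and 43.7 CPM in flox and at 254 and 260 CPM in KI, a log2 difference of 2.57. Irf9, its partner in the complex that binds the ISRE, had a log2 difference of 1.64. Irf1, which interferon gamma induces through the GAS shown above, was 73.6 and 73.6 CPM in flox and 47.4 and 69.3 CPM in KI, so it did not share the direction of the other factors.

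Of the 4 sensors, 3 were at least 2-fold higher. Ifih1 (MDA5), a sensor of long double-stranded RNA, differed by 3.92 on the log2 scale and its relative Dhx58 (LGP2) by 3.09. Eif2ak2 (PKR), a kinase that stops translation on double-stranded RNA, stood at 30.1 and 25.6 CPM in flox and at 119 and 113 CPM in KI. The OAS enzymes make a small messenger that activates the ribonuclease RNase L. Of the OAS genes, Oasl1 stood at 0.0823 and 0.230 CPM in flox and at 5.34 and 7.26 CPM in KI. Oas3, an OAS enzyme, was 9.26 and 7.72 CPM in flox against 9.37 and 11.0 CPM in KI. Zbp1, a sensor of Z-form nucleic acid, was 1.23 and 1.96 CPM in flox against 1.56 and 2.83 CPM in KI. Oas3 and Zbp1 were therefore near their flox level in the same libraries in which Oas1a and Oas2 differed by 3.35 and 3.71 on the log2 scale.

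The other antiviral effectors include Bst2, the most abundant member here. Bst2 stood at 219 and 224 CPM in flox and at 707 and 680 CPM in KI, where it was the highest of the members per length (706 ± 29.3 RPKM in KI, SD, n = 2). Rsad2 (viperin), a radical SAM enzyme that makes a chain-terminating nucleotide, stood at 4.98 and 6.14 CPM in flox and at 157 and 173 CPM in KI. Its neighbour on the chromosome, the nucleotide kinase gene Cmpk2, differed by 4.14 on the log2 scale. Samd9l, which inhibits translation, stood at 0.411 and 0.230 CPM in flox and at 13.7 and 17.9 CPM in KI. Ifitm3 differed by 0.54 and did not reach 2-fold.

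The 3 IFIT genes, whose proteins bind foreign RNA ends, were all higher, with Ifit1 at 4.94 and 4.99 CPM in flox and at 46.1 and 59.7 CPM in KI. All 7 genes around ISG15 were higher, with Isg15 itself at 7.12 and 6.68 CPM in flox and at 112 and 127 CPM in KI. Usp18, the protease that removes ISG15 and damps the receptor, differed by 2.75, and Trim25, the most-read ligase of the group, stood at 111 and 116 CPM in flox and at 294 and 283 CPM in KI. Hsh2d, an adaptor protein with an SH2 domain, had the largest difference of all members, 5.71, from 0.165 and 0.0384 CPM in flox to 5.12 and 5.63 CPM in KI. In no other group did Hsh2d exceed 0.423 CPM in a library. The interferon-induced genes Ifi44, Ifi27, Ifi35, Rtp4 and Xaf1 were all higher too, by 1.97 to 4.17 on the log2 scale.

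Antigen processing was the role group that followed least. Tap1, the peptide transporter, stood at 75.0 and 76.5 CPM in flox and at 174 and 179 CPM in KI, while its chromosomal neighbours Psmb8 and Psmb9, subunits of the immunoproteasome, differed by -0.39 and 0.56. Next to the 2-fold threshold, Adar (1.15) and Tap1 (1.25) lay just inside and Psmb9 (0.56) and Ifitm3 (0.54) just outside. Of the wider list of 11 genes of MHC class I and its loading, 3 were at least 2-fold higher and 0 lower. Among them was H2-D1, an MHC class I heavy chain, at 63.2 and 67.0 CPM in flox and at 671 and 624 CPM in KI. Mx1, a dynamin-like antiviral GTPase, had too few reads for the fit (8 in flox and 25 in KI), whereas Mx2 differed by 4.00.

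Of the other genes of the pathway, in lists written with earlier results known, 21 of 26 further interferon-stimulated genes were higher by the same rule and 1 was lower, with a median log2 difference of 1.66. Sp100 (4.74) and Trim30a (4.66) were among the 3 largest. Epsti1 was at 0.0411 and 0 CPM in flox and at 1.78 and 1.23 CPM in KI. Ifitm1, the exception, was 125 and 116 CPM in flox and 14.6 and 32.1 CPM in KI. Of 13 sensing adaptors and kinases 6 were higher, led by Tlr3 (2.83), Myd88 (1.98) and Sting1 (1.92). Of 10 NF-kB targets 3 were higher and 0 lower.

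The trophectoderm genotypes also differed in markers of cell type. Trophoblast markers summed to 3210 and 3280 CPM in flox and to 5410 and 5600 CPM in KI, with Cdx2, whose reads may include the CDX2 transgene that all these cultures carry, at 29.9 and 27.1 CPM against 107 and 103 CPM. Elf5, a defining gene of trophoblast stem cells, was 16 and 19 CPM in flox and 0.799 and 1.67 CPM in KI, so this marker was lower in KI while the summed level was higher. Pluripotency markers summed to 1170 and 1190 CPM in flox and to 387 and 557 CPM in KI, and fibroblast markers to 333 and 337 against 84.2 and 138 CPM. Leukocyte markers summed to 58.8 and 70.1 CPM against 59.6 and 78.4 CPM, with Ptprc, Tyrobp and Adgre1 at 0 in all 4 libraries. The part of the trophoblast, pluripotency and fibroblast markers in the members' levels was not tested.

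**Figure D2:**
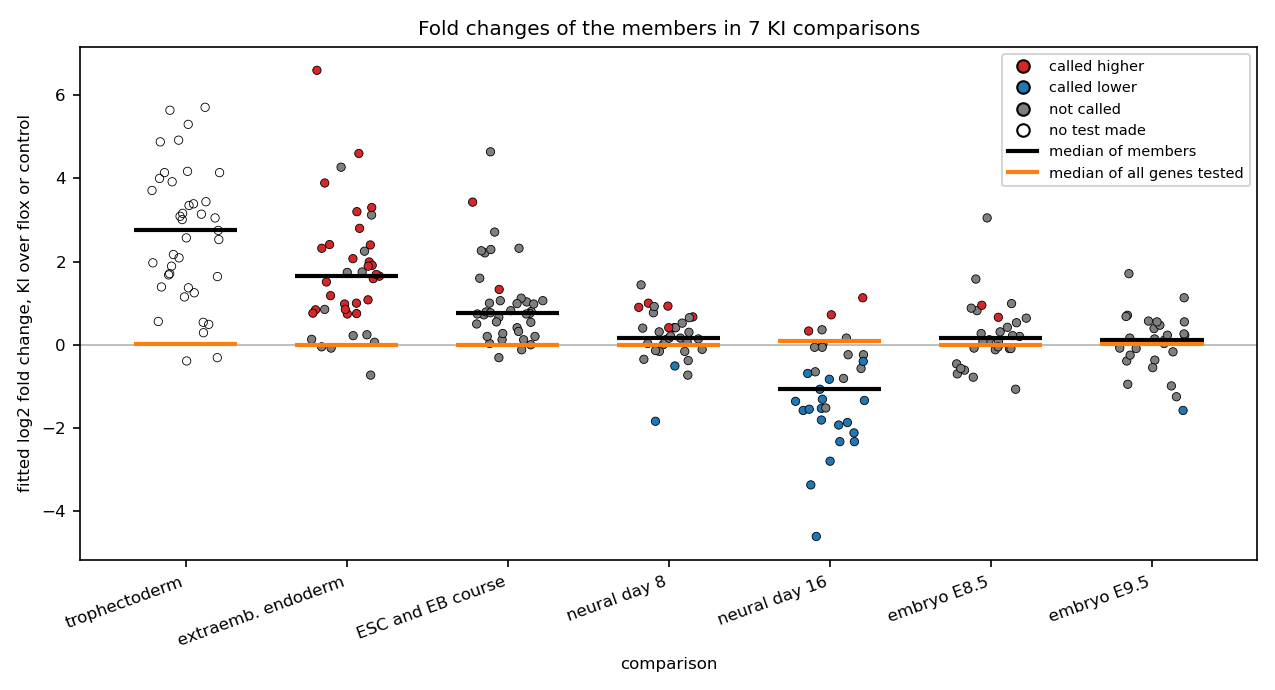
Fitted log2 fold change of each member (points) in 7 comparisons of KI with flox or control, with the median of the members (black line) and of all genes tested (orange line). Trophectoderm carries no test; the members' median was 1.65 in extraembryonic endoderm and -1.07 on neural day 16, 0.16 and 0.13 at E8.5 and E9.5, and the top point in extraembryonic endoderm is Mx2, whose flox libraries held 0 reads and whose fitted value is no bound.

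In the extraembryonic endoderm cultures, a lineage that lines the yolk sac, 26 of 39 members rose in KI and 0 fell at an adjusted p under 0.05 in edgeR's quasi-likelihood test. Over all 15532 genes, 18.1% were called higher and 17.4% lower. The median log2 fold change of the members was 1.65, or 1.59 with genes absent from flox set to their lower bound, against 0.00 for all genes. The summed level was 388 and 391 CPM in flox and 588 and 722 CPM in KI. These libraries were not used to choose the members, but earlier results of them were known. The filter on low counts ran with the trophectoderm libraries included, so members nearly absent here could enter through the libraries they were selected on. Among the 39 were Zbp1, with 4 reads in KI and 1 in flox, and Ifi44, with 4 and 0. Mx2, called on 21 reads in KI and 0 in flox, was also low here.

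The largest changes were among effectors that flox cells barely expressed. Ifit1 was 0.0969 and 0.102 CPM in flox and 2.02 and 1.11 CPM in KI, a log2 fold change of 3.89 (SE 0.54, adjusted p = 6.63e-05). Rsad2 was 1.16 and 1.07 CPM in flox and 15.9 and 6.51 CPM in KI, a log2 fold change of 3.30 (SE 0.61, adjusted p = 0.0124). Isg15 was 0.484 and 0.817 CPM in flox and 9.19 and 2.93 CPM in KI, a log2 fold change of 3.20 (SE 0.78, adjusted p = 0.0311). In all 3 genes the groups did not overlap, and the clone 27 library was above the clone 48 library.

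Rtp4, which restrains some RNA viruses, had 2 reads in flox and 56 in KI, a ratio of 27.4 with an exact 95% interval of 7.24 to 232 that covers counting error only. Mx2 had 0 reads in flox and 0.797 and 0.202 CPM in KI, at least 6.85-fold higher against a floor of 3 reads over the flox group (adjusted p = 0.00623). Both genes stayed below 3 CPM, far under their trophectoderm KI levels of 39.1 and 50.3 CPM for Rtp4 and 22.2 and 27.4 CPM for Mx2. The calls of Isg15, Rsad2, Rtp4 and Bst2 were lost when either flox library was left out, with adjusted p over all settings reaching 0.153, 0.0741, 0.105 and 0.138. Those of Irf9 and Ifit2 were lost without either flox library or without clone 27 (up to 0.0659 and 0.187), and that of Samd9l without flox replicate 1 or clone 27 (up to 0.194).

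Other members rose by a like amount in both clones. Ifih1 was 1.74 and 1.94 CPM in flox and 9.76 and 10.2 CPM in KI, a log2 fold change of 2.41 (adjusted p = 2.08e-07). Ifitm3, the most abundant member per length here, was 48.6 and 46.2 CPM in flox and 94.5 and 96.1 CPM in KI, a log2 fold change of 0.98. Herc6, an E3 ligase for ISG15 in mice, was 1.65 and 0.920 CPM in flox and 6.38 and 7.52 CPM in KI, a log2 fold change of 2.40. For these 3 members each KI library was above each flox library by more than the gap between the clones. Eif2ak2 rose by 0.74, from 41.2 and 38.1 CPM to 69.6 and 65.4 CPM.

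By role, 2 of 4 transcription factors rose (Stat2 by 0.84 and Irf9 by 0.75 on the log2 scale), as did 2 of 4 sensors, 2 of 5 OAS genes, 2 of 3 IFIT genes and 6 of 7 other antiviral effectors. All 3 antigen-processing members rose here, Psmb9 by 2.32, Psmb8 by 1.65 and Tap1 by 0.85. The PARP14 module, the neighbours Parp14, Dtx3l and Parp9, which encode ADP-ribosyltransferases and their ubiquitin ligase partner, rose by 1.89, 1.00 and 1.51. Not called were Irf7, at 0.387 and 0.307 CPM in flox and 5.11 and 1.06 CPM in KI (log2 3.12, SE 1.04, adjusted p = 0.0787), and Usp18 (1.75, SE 0.85, adjusted p = 0.186). Trim25 (-0.08), Adar (0.13) and Irf1 (0.22) lay close to 0, and Dhx58 was -0.73 on 27 reads in flox and 17 in KI.

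The clones were ordered differently in different cultures. In extraembryonic endoderm clone 27 was above clone 48 in 33 of 40 members, with a median log2 ratio of 0.38. In trophectoderm clone 48 was the higher in 34 members (-0.23), and in day 10 embryoid bodies in 38 (-0.72). With 1 library a clone and culture, this order has no replicate check.

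Beyond the members, 13 of 26 further interferon-stimulated genes rose and 2 fell in extraembryonic endoderm KI, led by Igtp (2.62), Sp100 (2.54) and Trim30a (2.42). Igtp, an immunity-related GTPase, was 0.969 and 1.48 CPM in flox and 8.30 and 7.07 CPM in KI. Of 13 sensing adaptors and kinases 7 rose, among them Tlr3 (2.05), Sting1 (1.50) and Myd88 (1.17), and of 11 genes of MHC class I and its loading 7 rose and 1 fell, with H2-D1 at 46.5 and 54.3 CPM in flox and 217 and 142 CPM in KI. Of 10 NF-kB targets 6 rose and 0 fell, led by Icam1 (1.66).

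Markers of the lineage that these cultures are named for were lower in KI. All 10 extraembryonic endoderm markers fell, from sums of 5180 and 5280 CPM in flox to 2530 and 2700 CPM in KI. Cubn, an endocytic receptor of visceral endoderm, was 450 and 453 CPM in flox and 1.97 and 2.53 CPM in KI, and Gata4 was 169 and 183 against 15.5 and 17.7 CPM. Of the leukocyte markers, Ptprc, Tyrobp and Adgre1 were at 0 in all 4 libraries. The same genes were at 0 in trophectoderm while the sum of that list was not, so they do not stand for the list. The part of the lower endoderm markers in the members' rise was not tested.

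Over the course from ESC to embryoid body, 2 of 39 members rose in KI and 0 fell in a fit with day as a term. That fit counts the 3 days of 1 flox line and of each of 2 KI clones as separate libraries, so its p-values measure the spread between libraries of the same lines and not between lines. The deviations of a clone's libraries correlated between days, at 0.36 for days 0 and 4 and 0.13 for days 4 and 10. Over all 15991 genes 0.4% were called higher and 0.306% lower. The members were Ifit3 (log2 3.43, SE 0.47, adjusted p = 0.0285) and Bst2 (1.33, SE 0.18, adjusted p = 0.029). The members' median was 0.77 against -0.01 for all genes. Neither call held in every refit: 0 members were called without the day 0 or the day 4 library of clone 27 or of clone 48, 1 without either day 10 KI library or the flox library of day 10, and 4 without the day 0 flox library. DESeq2 called 7.

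Bst2 was higher in both clones at each time. It was 15.3 CPM in flox and 47.9 and 47.6 CPM in clones 27 and 48 on day 0, 80.8 against 137 and 149 CPM on day 4, and 21.1 against 54.4 and 78.3 CPM on day 10. Ifit3 had at most 0.136 CPM in any library of days 0 and 4 and was 1.78 CPM in flox and 13.4 and 24.6 CPM in KI on day 10, so nearly all of its reads come from that day.

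Single days were then described. On day 10, 21 of 39 members at or above 1 CPM in at least 1 library were at least 2-fold higher in both clones than in the single flox library and 0 were lower, with 0.5 CPM added to each level before the ratio. With 1 flox library a day there is no test, and over all 14589 genes 3.5% were higher and 3.91% lower by that rule. The 1 CPM can be met by the KI libraries alone. Of the 21 members, Irf7, Zbp1, Oas1a, Oasl1, Ifi44 and Rtp4 were under 1 CPM in flox and entered through KI libraries. The members' median log2 ratio was 1.55 against 0.01 for all genes, and both clones were above flox in 36 of 40 members. Without the added 0.5 CPM the count was 24, with Mx1 (0.272 CPM in flox, 0.972 and 2.58 CPM in KI), Psmb8 (1.16 against 2.61 and 6.66 CPM) and Oas2 (0.194 against 0.511 and 2.58 CPM) gained. On day 4, 0 of 28 members were 2-fold higher and 0 lower by the rule with 0.5 CPM added, against 1.45% and 4.43% of 13843 genes. Without it 1 was lower, Mx2, at 1.74 CPM in flox and 0.274 and 0.633 CPM in KI.

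Isg15 on day 10 was 3.96 CPM in flox and 29.2 and 44.0 CPM in clones 27 and 48, although on day 4 flox was the higher, at 6.28 against 3.97 and 4.25 CPM. Ifit1 was 1.86 CPM in flox and 18.6 and 40.6 CPM in KI, and Usp18 was 3.49 CPM in flox and 19.9 and 31.9 CPM in KI. Rsad2 was 2.29 CPM in flox and 23.8 and 26.2 CPM in KI. Ifi44, a gene of unclear function that interferon induces strongly, was 0.465 CPM in flox and 9.31 and 15.6 CPM in KI, and Irf7 was 0.233 CPM against 4.76 and 7.87 CPM. Irf1 again did not follow, at 17.3 CPM in flox and 12.2 and 17.5 CPM in KI.

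On day 0, in ESCs, 5 of 23 members were at least 2-fold higher in both clones and 2 lower by the same rule, against 5.18% and 2.5% of 12934 genes. The higher members were Bst2, Zbp1, Oasl1, Psmb9 and Tap1, of which Psmb9 (0.264 CPM in flox) met 1 CPM through the KI libraries only. Without the added 0.5 CPM Parp14 joined them, at 2.27 CPM in flox and 5.30 and 5.04 CPM in KI. Zbp1 was 2.80 CPM in flox and 6.45 and 7.40 CPM in KI, its highest level in any group, and Tap1 was 1.22 against 7.17 and 6.51 CPM. The lower members were Oas1a, at 25.0 CPM in flox and 3.69 and 6.98 CPM in KI, and Xaf1, a pro-apoptotic interferon target, at 14.5 against 4.29 and 3.95 CPM. Isg15, Ifit1, Ifit3, Rsad2, Usp18 and Ifi44 were each under 0.5 CPM in all 3 ESC libraries.

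Leukocyte markers were present in embryoid bodies of day 10, at sums of 142 CPM in flox, 55.0 CPM in clone 27 and 258 CPM in clone 48. Ptprc was 10.6 CPM in flox, 3.94 CPM in clone 27 and 37.0 CPM in clone 48. Fibroblast markers summed to 13600 CPM in flox, 6980 CPM in clone 27 and 16600 CPM in clone 48. The part of the leukocyte and fibroblast markers in the members' day 10 levels was not tested.

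**Figure D3:**
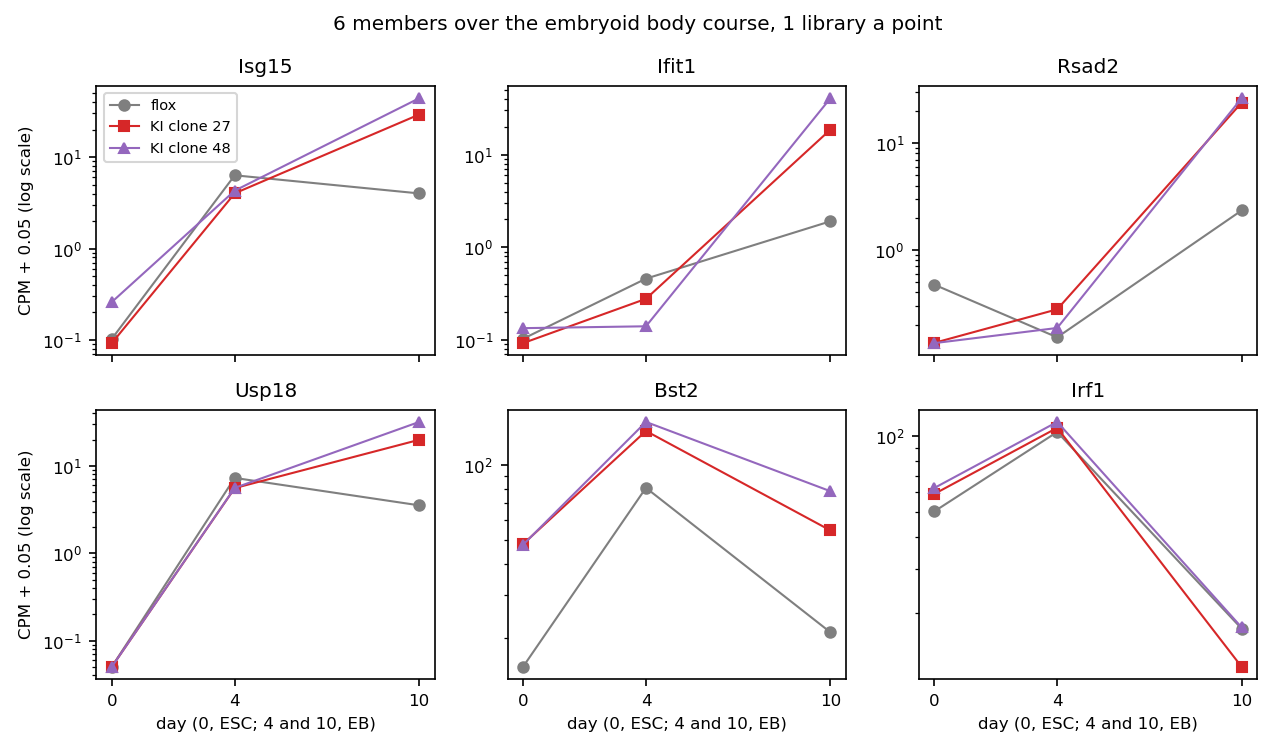
CPM + 0.05 (log axis) of 6 members on day 0 (ESC) and days 4 and 10 (embryoid bodies) in the flox line and KI clones 27 and 48, with 1 library a point. Isg15, Ifit1, Rsad2 and Usp18 are more than 5-fold above flox in both clones on day 10, Bst2 is above flox at each day, and Irf1 runs together in the 3 lines.

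Within the KI clones, the members split from ESC to day 4: 15 of 39 rose and 11 fell, against 26.5% and 23.8% of 15676 genes. Usp18 went from 0 reads to 5.53 and 5.56 CPM, at least 87.6-fold higher against a floor of 3 reads over the ESC group. The neighbours Oasl1 and Oasl2 moved in opposite directions: Oasl2 rose from 0.0849 and 0.126 CPM to 22.8 and 17.7 CPM (log2 7.42), and Oasl1 fell from 5.18 and 4.96 CPM to 0.868 and 0.679 CPM (log2 -2.80). Isg15 rose by 4.87 and Psmb8 by 4.70, whereas Zbp1 fell by 2.79, Samd9l by 2.16 and Trim25 by 1.09 on the log2 scale.

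From day 4 to day 10 in KI, 21 of 39 members rose and 6 fell, against 36.7% and 36.6% of all genes. The 3 IFIT genes rose, Ifit1 by 7.41, Ifit3 by 7.24 and Ifit2 by 2.49, and Rsad2 rose by 6.98 (SE 0.26, adjusted p = 1.34e-06). Ifi44 went from 0 reads to 9.31 and 15.6 CPM, at least 187-fold higher against the floor. Irf1 fell from 108 and 114 CPM to 12.2 and 17.5 CPM (log2 -2.97), and Psmb8 (-2.34), Dtx3l (-1.35), Bst2 (-1.19), Trim25 (-0.83) and Parp9 (-0.81) fell with it. Over the same days 6 of 8 leukocyte, 8 of 8 endothelial and 6 of 7 fibroblast markers rose, and their part in the members' rise was not tested. These 2 intervals share the day 4 libraries and the filter on low counts.

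In the neural cultures of day 8, 5 of 33 members rose in KI and 2 fell, against 6.3% and 13.2% of 16439 genes. The members' median was 0.16 against 0.00. Parp14 was 1.34 and 1.11 CPM in flox and 2.34 and 2.46 CPM in KI, a log2 fold change of 1.00 (SE 0.22, adjusted p = 0.00621). Its neighbour Dtx3l was 4.82 and 5.22 CPM in flox and 8.70 and 10.0 CPM in KI (0.93, SE 0.14, adjusted p = 0.000558), and Parp9 was 5.24 and 5.45 against 9.12 and 10.4 CPM (0.90, adjusted p = 0.000768). The 3 adjacent genes thus rose by like amounts, with no overlap between the groups.

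Ifih1 (0.67, adjusted p = 0.038) and Trim25 (0.41, adjusted p = 0.0411) also rose on day 8. Rsad2 fell, from 1.23 and 0.860 CPM in flox to 0.276 and 0.286 CPM in KI (log2 -1.84, SE 0.36, adjusted p = 0.00274). Irf1 fell from 8.35 and 9.32 CPM to 6.22 and 5.96 CPM (log2 -0.51, adjusted p = 0.0193). The count of 7 rose to 13 when the day 8 libraries were fitted without those of day 16, and fell to 4 without flox replicate 1, 3 without flox replicate 2, and 4 without clone 27 or clone 48. The calls of Ifih1, Irf1 and Trim25 were lost in each of those 4 fits, with adjusted p over all settings of up to 0.233, 0.248 and 0.365, and that of Parp14 without flox replicate 2 (up to 0.0981). All 8 endothelial markers fell in KI on day 8, from sums of 134 and 136 CPM to 27.3 and 33.3 CPM. Of 8 fibroblast markers 6 fell and 1 rose (sums of 380 and 382 against 146 and 197 CPM), of 7 neuron markers 6 fell and 0 rose (1320 and 1340 against 847 and 983 CPM), and of 9 extraembryonic endoderm markers 6 fell and 1 rose (492 and 497 against 338 and 340 CPM). The part of these markers in the members' changes was not tested.

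On day 16 the members lay the other way: 19 of 33 fell in KI and 3 rose, against 19.7% lower and 27.1% higher among all genes. The members' median was -1.07 and that of all genes 0.09. Bst2 was 38.2 and 47.6 CPM in flox and 1.74 and 1.32 CPM in KI, a log2 fold change of -4.61 (SE 0.18, adjusted p = 6.98e-09). Oasl2 was 3.20 and 3.59 CPM in flox and 0.463 and 0.117 CPM in KI (-3.37, SE 0.35, adjusted p = 1.31e-05). Parp14 was 2.18 and 1.61 CPM in flox and 0.278 and 0.200 CPM in KI (-2.80, SE 0.28, adjusted p = 1.01e-05). In these 3 genes the lowest flox library was more than 3-fold above the highest KI library.

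Irf1 was 9.08 and 9.28 CPM in flox and 1.48 and 1.69 CPM in KI, and Trim25 was 4.65 and 4.41 against 0.814 and 0.751 CPM, both with a log2 fold change of -2.33. The ligases Dtx3l and Herc6 fell by 1.81 and 1.07 on the log2 scale and Parp9 by 1.53. The sensors Ifih1 and Eif2ak2 fell by 1.58 and 0.69, and all 3 antigen-processing members fell, Psmb8 by 1.36, Psmb9 by 0.83 and Tap1 by 0.40. Ifitm3 fell from 27.6 and 29.8 CPM to 11.9 and 8.27 CPM (log2 -1.31). Mx2, Ifi35, Xaf1, Isg15 and Ifit1 fell as well, on at most 169 reads a group.

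Stat2, Cmpk2 and Adar rose on day 16. Stat2 was 19.8 and 17.7 CPM in flox and 26.1 and 45.1 CPM in KI (log2 1.13, SE 0.22, adjusted p = 0.00239), with clone 48 well above clone 27. Cmpk2 was 16.9 and 13.7 CPM in flox and 21.6 and 22.1 CPM in KI (0.72, SE 0.12, adjusted p = 0.000586), while its neighbour Rsad2 was at 0.236 CPM or less in all 4 libraries. Adar was 241 and 244 CPM in flox and 295 and 235 CPM in KI, so the groups overlapped, and its call (0.33, adjusted p = 0.03) was lost without clone 27, without either flox library and when the day 16 libraries were fitted alone (up to 0.237). The call of Ifit1 was lost without flox replicate 1 or either clone (up to 0.245), those of Isg15, Psmb9 and Tap1 without flox replicate 2 or clone 27 (up to 0.0809, 0.248 and 0.249), and that of Mx2 without flox replicate 1 or clone 48 (up to 0.0649). Irf9, at 11.5 and 11.7 CPM in flox and 10.4 and 9.82 CPM in KI, was not called (0.01, adjusted p = 0.964).

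Other gene lists were counted on both days. On day 16, of 24 further interferon-stimulated genes 17 fell and 1 rose in KI, with Iigp1 (-3.87), Gbp2 (-3.83) and Sp100 (-3.66) the lowest. Of 10 NF-kB targets 9 fell and 0 rose, led by Icam1, an adhesion molecule, at 23.4 and 23.8 CPM in flox and 2.26 and 1.42 CPM in KI. Of 13 sensing adaptors and kinases 9 fell and 1 rose, and of 11 genes of MHC class I and its loading 7 fell and 3 rose. On day 8 the same lists had 7 of 24 further interferon-stimulated genes lower and 4 higher, 4 of 10 NF-kB targets lower and 0 higher, 2 of 13 sensing adaptors and kinases lower and 2 higher, and 0 of 11 MHC genes called, so the first 2 lists had more lower than higher calls on both days. On day 16 fibroblast markers summed to 3830 and 4070 CPM in flox and to 915 and 1130 CPM in KI, with 6 of 8 called lower and 1 higher, and all 7 neuron markers rose, from sums of 3270 and 3620 CPM to 5400 and 5840 CPM. Of 8 trophoblast markers 5 fell and 0 rose (sums of 14.1 and 16.4 against 4.77 and 4.31 CPM), and of 9 extraembryonic endoderm markers 6 fell and 0 rose (400 and 422 against 210 and 146 CPM). The part of these markers in the members' fall was not tested.

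The KI effect itself differed between the days. In the interaction of genotype and day, 17 of 33 members had a lower KI effect on day 16 than on day 8 and 1 a higher one, against 14% and 19.2% of all genes. The log2 difference of the effects was -4.50 for Bst2 (SE 0.24, adjusted p = 4.21e-07), -3.80 for Parp14 (SE 0.36, adjusted p = 1.57e-05) and -3.56 for Ifit1 (SE 0.82, adjusted p = 0.00607). Dtx3l (-2.75), Trim25 (-2.74) and Parp9 (-2.43), which rose in KI on day 8 and fell on day 16, were among them. Stat2 had the higher effect on day 16 (1.14, adjusted p = 0.0198). Of the 18 calls, 12 held in all 13 refits and 6 did not. That of Ifit1, on 2 to 22 reads a library, was lost without flox replicate 1 of day 16 (adjusted p = 0.062). That of Stat2 was lost in 7 refits, with no filter and without any 1 of the 4 flox libraries or of the 2 KI libraries of day 8 (up to 0.111), and its difference was 0.66 without clone 48 of day 16. The calls of Isg15 and Tap1 were lost in 5 refits each (up to 0.133 and 0.128), both of them without flox replicate 1 or clone 48 of day 8 and without flox replicate 2 or clone 27 of day 16, and in addition Isg15 with DESeq2 and Tap1 without flox replicate 2 of day 8. Samd9l lost its call in 6 (up to 0.123), among them each flox library of day 8, clone 48 on either day and flox replicate 1 of day 16, and Mx2 in 9 (up to 0.177), among them each library of either day but flox replicate 2 of day 8.

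From day 8 to day 16 in flox, 14 members rose and 8 fell, against 38.4% and 38.7% of all genes, and the members' median was 0.23. Bst2 rose from 5.10 and 5.24 CPM to 38.2 and 47.6 CPM (log2 3.08), and Ifi27 rose from 0.348 and 0.508 CPM to 9.28 and 9.15 CPM (4.44). Rsad2 (-2.48), Oas1a (-2.54) and Usp18 (-1.19) fell. In KI, 7 members rose and 19 fell, against 40.7% and 39.2%, with a median of -1.42. Bst2 fell by 1.42 there, from 4.18 and 5.18 CPM to 1.74 and 1.32 CPM, and Trim25 (-3.79), Parp9 (-3.37) and Dtx3l (-3.33) fell furthest. Ifi27 (3.46), Cmpk2 (2.24), Ifit3 (1.87) and Adar (1.77) rose in KI as they did in flox. The interval in each genotype shares its libraries with the comparisons of genotypes on each day.

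**Figure D4:**
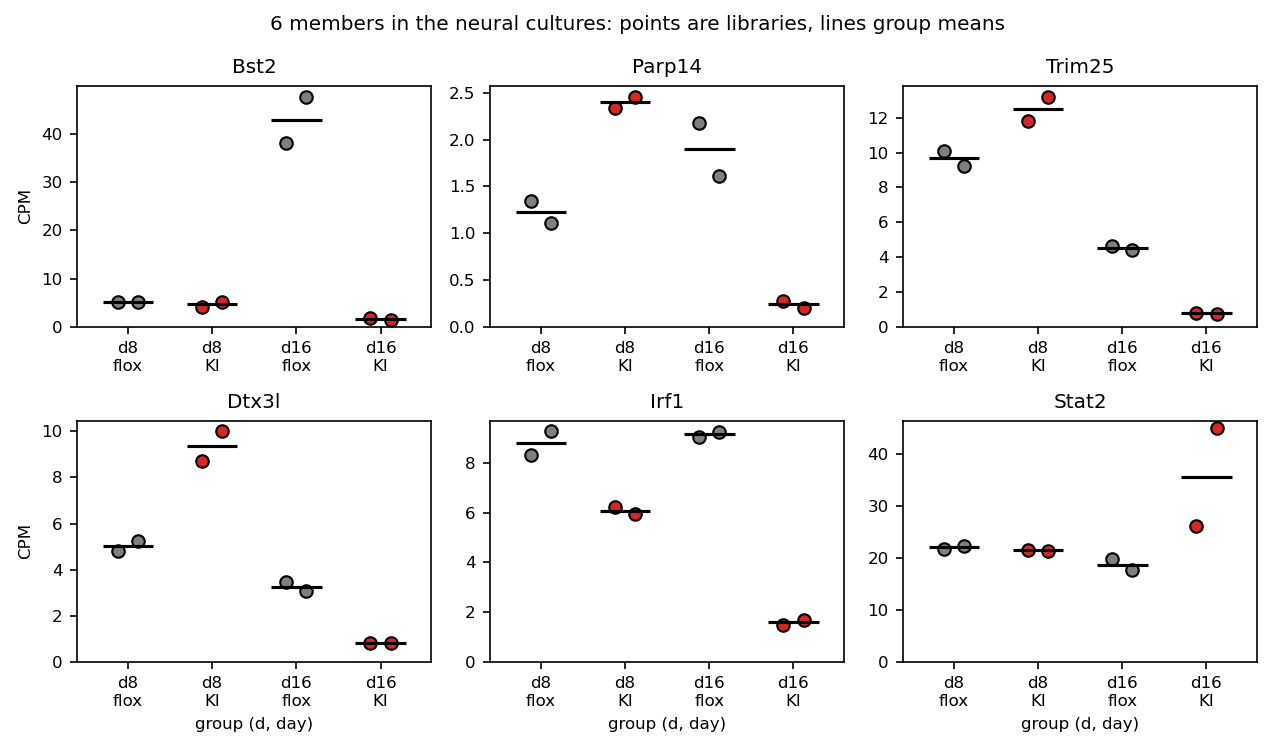
CPM of 6 members in the neural cultures on days 8 and 16, with points for libraries and lines for group means of 2. Bst2 is high only in flox on day 16, Parp14, Trim25 and Dtx3l are higher in KI on day 8 and lower in KI on day 16, Irf1 is lower in KI on both days, and Stat2 is higher in KI on day 16.

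Few members were called in embryos, and at E8.5 few of all genes were called either. At E8.5, 2 of 28 members rose in KI and 0 fell, against 3.63% and 1.83% of 15436 genes. Trim25 was 12.6, 10.7 and 11.2 CPM in the controls and 23.4, 13.9 and 17.2 CPM in KI, a log2 fold change of 0.66 (SE 0.17, adjusted p = 0.0312). Cmpk2 was 1.79, 2.12 and 2.38 CPM in the controls and 4.42, 2.82 and 4.98 CPM in KI, a log2 fold change of 0.95 (SE 0.27, adjusted p = 0.0403). In both genes the 3 KI libraries lay above the 3 control libraries. The count fell to 0 without any of the 3 control libraries or without KI replicate 1 or 3. In the same embryos 5 of 8 endothelial markers rose and 0 fell (sums of 278 to 334 CPM in the controls and 378 to 545 CPM in KI), and 3 of 10 extraembryonic endoderm markers rose and 0 fell. Those 3 were Gata6 (log2 0.60), Sox17 (0.90) and Sox7 (0.56). Afp (-0.68), Amn (-0.57) and Cubn (-0.67) of that list were not called. The part of these markers was not tested.

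With the number in the library titles as a replicate block, which pairs the E8.5 libraries, 4 of 32 members were called. The filter on low counts takes the design into account and let 4 more members into this fit, so the block and the filter changed together. The shares of all genes given above are of the fit without the block, so nothing is read from this count. Rsad2 was called here and not without the block, at 0.0995, 0.149 and 0 CPM in the controls and 0.884, 0.682 and 0.712 CPM in KI (log2 3.12 with the block, adjusted p = 0.0376, 0.0739 without it and 0.0291 to 0.243 over the alternatives). So was Ifitm3, at 10.7, 10.2 and 9.05 CPM in the controls and 6.98, 5.41 and 7.16 CPM in KI (-0.62 with the block, adjusted p = 0.0412, 0.0739 without it and 0.0342 to 0.203 over the alternatives). The Rsad2 control libraries held 6 reads in all.

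At E9.5, 0 of 28 members rose and 1 fell, against 14.6% and 14.9% of all genes. Xaf1 was 0.873, 1.71 and 2.19 CPM in the controls and 0.456, 0.601 and 0.530 CPM in KI (log2 -1.58, SE 0.40, adjusted p = 0.00545), with no overlap. Without control replicate 1 the count was 2. Rsad2 at this stage was 0.0794, 0.0742 and 0.895 CPM in the controls and 0.248, 0.0858 and 0.354 CPM in KI, so the groups overlapped. In the same libraries genes of several marker lists changed. Of 6 neural progenitor markers 5 fell and 0 rose (sums of 489 to 656 CPM in the controls and 258 to 298 CPM in KI), and of 7 neuron markers 5 fell and 0 rose (154 to 235 against 44.5 to 48.5 CPM). All 5 heart markers rose (194 to 241 against 425 to 815 CPM), as did 5 of 10 trophoblast markers (192 to 404 against 622 to 655 CPM), 4 of 10 extraembryonic endoderm markers (613 to 769 against 811 to 939 CPM) and 3 of 8 endothelial markers (309 to 346 against 391 to 445 CPM), with 0 lower in each of these 4 lists. Of the trophoblast list Cdx2 (log2 0.49), Elf5 (0.11) and Eomes (0.26) were not called. Nor were Afp (1.55), Amn (2.25) and Cubn (3.64) of the extraembryonic endoderm list. The lists are named for a lineage and do not show which cells of the embryo held the RNA. The part of these markers in the members' values was not tested.

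The change of the KI effect between the stages was called for 0 members in the higher and 1 in the lower direction, against 3.39% and 3.24% of all genes. That member was Cmpk2 (-1.34, SE 0.37, adjusted p = 0.0327), which in the controls rose from E8.5 to E9.5, to 5.00, 4.64 and 6.49 CPM, and in KI stood at 4.14, 4.72 and 3.49 CPM at E9.5. The count was 0 without E8.5 control replicate 1 or 2, E8.5 KI replicate 1 or 3, E9.5 control replicate 1 or 3, or E9.5 KI replicate 3. From E8.5 to E9.5 in the controls, 2 members rose (Herc6 by 1.47 and Cmpk2 by 1.29) and 4 fell (Xaf1, Dhx58, Bst2 and Ifitm3), against 12.2% and 12.1%. That count of 6 fell to 3 without any of the E8.5 control libraries or E9.5 control replicate 1, and to 2 without E9.5 control replicate 2. In KI embryos 0 rose and 3 fell (Xaf1 by 2.14, Irf7 by 1.97 and Trim25 by 0.71), against 15.9% and 16.6%, and the count was 2 without E9.5 KI replicate 2.

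Members with and without an ISRE core in the promoter window were set side by side, as a description. In trophectoderm the median log2 difference was 3.01 over the 11 members with a match and 1.97 over the 19 without. In extraembryonic endoderm 9 of 11 with a match rose (median 1.99) and 12 of 19 without (median 1.08). On neural day 16, where 10 and 16 of them had enough reads, 7 of 10 with a match (median -1.06) and 12 of 16 without (median -0.95) were called in either direction. Isg15, Ifit1, Rsad2 and Bst2, whose sequences are printed above, had log2 values of 4.14, 3.44, 4.92 and 1.68 in trophectoderm. Irf1, with a GAS and no ISRE core in its window, had -0.31 there, 0.22 in extraembryonic endoderm and -2.33 on neural day 16.

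Some members have near-identical relatives, and their values are uncertain to that extent. Oas1a has close copies in the Oas1 cluster and Ifit3 has the copy Ifit3b, so reads may have been split between them. The sources do not say whether strand was used in counting, so reads from a member and an antisense partner cannot be told apart.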

How the data were processed

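RNA was measured by sequencing in 37 libraries in 18 groups; the other 63 of the 100 samples, 1 RNA library of neural day 8 with both genes knocked out among them, were not analysed here. Per the submitters' processing notes the build was mm9 and the tools named were bcl2fastq, Bowtie2, STAR and SICER 1.1, with no role or order given. Per the file headers, each deposited table holds read counts and RPKM per RefSeq transcript, computed by the authors. Of 29082 transcripts 28436 were matched to gene symbols and 646 were not, and the transcript with the most reads stood for its gene, which kept a median of 71.8% of reads. CPM was computed from those counts. Tests used edgeR 4.0.16 (TMM, filterByExpr with a minimum count of 10, quasi-likelihood F-test, R 4.3.3) on all genes with Benjamini-Hochberg adjustment over all genes and a threshold of 0.05. Trophectoderm and extraembryonic endoderm libraries shared a fit, as did all neural, all embryo and all ESC and embryoid body libraries, with the KI embryoid body course fitted on its own. Alternatives were RLE scaling, no filter, summed transcripts, DESeq2 1.42.0, the compared libraries alone, a replicate block and leaving out each library. The tests were checked on simulated data.

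The members and lists were chosen with earlier results of these data known. All members could be named, with values by library for the 3 largest changes each way and the most-read member of each role; other genes came from the lists, at most 3 a list, plus Kmt2c, Kmt2d and defining markers. The list of interferon receptors and signalling genes is not reported here. The title numbers pair the E8.5 embryos: deviations from group means correlated at 0.29, 0.33 and 0.13 for equal numbers and at -0.27 to -0.02 otherwise. KI clones 27 and 48 recur in each culture as named lines. The 2 flox libraries of neural day 8 lay closest of all replicate pairs (chi-square 1.5 over its degrees of freedom, against 2.76 or more for the others) and, being above sampling noise, were kept apart. Promoter sequences are from RefSeq on GRCm38.p6, and coordinates of other builds were not used. Intervals and floors cover counting error only, as reads counted without molecular identifiers may repeat a molecule.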

Additional observations from a re-analysis of the deposited data

Results flagged for a closer look

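In the neural cultures the KI effect differed between days 8 and 16, by the interaction test in edgeR, for 18 members. The log2 difference of the effects (day 16 less day 8) was -4.5 for Bst2, -3.8 for Parp14, -3.56 for Ifit1 and 1.14 for Stat2. The calls of Ifit1 (2 to 22 reads a library, adjusted p of up to 0.062) and Stat2 (up to 0.111) were lost in 1 and 7 of 13 refits. Of the 18 calls, 12 held in all 13 refits. In embryos the KI effect differed between E9.5 and E8.5, by the same test, for 1 member, Cmpk2, with a log2 difference of -1.34, and that call was lost in 7 of 16 refits, each without 1 library (adjusted p of up to 0.0839).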

How the results depend on the processing

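In the 6 tested comparisons of KI with flox or control there were 60 member results (those of the interactions and of the intervals between stages are not in this tally). Of their 562 refits under the alternatives, 478 kept the call, 84 lost it and 0 reversed its direction; 22 of the 60 lost a call at least once. The count of called members on neural day 8 was 7 and became 13 with only the compared libraries, and 3 to 4 when leaving out each library in turn. At E8.5 it was 2 and became 1 with transcripts summed, and 0 to 2 when leaving out each library. At E9.5 it was 1, and 1 to 2 when leaving out each library. For the embryo KI effect it was 1, and 0 to 1. For controls from E8.5 to E9.5 it was 6, and 2 to 7, and for KI embryos it was 3, 5 with DESeq2 and 2 to 4. For the embryoid body course it was 2, 7 with DESeq2 and 0 to 4 when leaving out each library. Among alternatives chosen after seeing the data, it was 0 without day 0, 1 without day 10, 0 without clone 27 and 0 without clone 48. The other counts stayed within 1.5 times: 19 to 31 in extraembryonic endoderm (26), 18 to 20 on neural day 16 (22), 13 to 18 for the neural KI effect (18), 17 to 20 in flox (22) and 23 to 26 in KI (26) from day 8 to 16, 18 to 22 for KI from ESC to day 4 (26), 23 to 31 from day 4 to 10 (27), and 33 to 34 for trophectoderm (33). With the title number as a replicate block 4 members were called at E8.5 and 2 at E9.5. At E9.5 the deviations correlated at -0.01 to 0.17 for equal numbers and at -0.16 to -0.03 otherwise. With line or clone as a replicate block the counts were 21 for the neural KI effect, with Psmb9, Ifi27 and Ifi35 gained, 22 in flox and 27 in KI from day 8 to 16, 26 for KI from ESC to day 4 and 28 from day 4 to 10. In the embryos and the neural cultures 28 and 33 of the 40 members had enough reads to be tested. The neural libraries were the deepest, and the part of depth and of level in those numbers was not tested. The cause of the changes in count between settings was not tested.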
